A study of Mus musculus with 104 samples.

Results

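The 9 genes described here, Stab2, Lyve1, Clec4g, Igfbp7, Oit3, Flt4, Kdr, Gata4 and Adam23, were taken by symbol as genes of the liver sinusoidal endothelium, out of 24940 genes listed in the deposited RNA-seq tables of mouse cells. All 9 were found, 1 row each, in all 8 tables, which cover 47 groups of libraries. They were followed first across endothelial cells sorted by surface STAB2 and then across liver macrophages, monocytes and cultured macrophages. Levels are given as TPM, reads corrected for transcript length and scaled to the library, so they can be compared between genes.

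Sinusoidal endothelial cells line the capillaries of the liver. They are fenestrated, rest on little basement membrane and clear waste molecules from the blood through scavenger receptors. Kupffer cells, the macrophages that reside in these vessels, lie in contact with this endothelium, and when they are lost, blood monocytes enter and replace them. Among the members, Stab2 encodes stabilin-2, a scavenger receptor for hyaluronan, and Lyve1 encodes another hyaluronan receptor, which is also found on lymphatic endothelium and on some tissue macrophages. Clec4g encodes the C-type lectin LSECtin. Kdr and Flt4 encode the vascular endothelial growth factor (VEGF) receptors VEGFR2, the main signalling receptor for VEGF-A, and VEGFR3, the receptor for VEGF-C and VEGF-D. Gata4 encodes a transcription factor that specifies sinusoidal over continuous endothelium. Igfbp7 encodes a secreted insulin-like growth factor-binding protein, Oit3 a secreted zona pellucida-domain protein and Adam23 a surface ADAM protein without protease activity that binds integrins.

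The endothelial cells came from C57BL/6J mice, male by the table's header, and were sorted as STAB2-low, STAB2-int and STAB2-high, with 2 libraries each, which are told apart by the numbers that end their titles (Stab2Low_210 and Stab2Low_317, for example). A time-course table held Ly6C-high blood monocytes of C57BL/6J mice (4 libraries), repopulating liver macrophages (RLMs) of Clec4f-cre/Rosa26iDTR mice 12, 24, 48, 72, 168 or 336 h after diphtheria toxin (2, 3, 2, 2, 3 and 3 libraries), and Kupffer cells of such mice 72 h after PBS (3 libraries). In these mice the Clec4f promoter, active in Kupffer cells, drives Cre, and the Cre-inducible toxin receptor lies at Rosa26. A further table held Kupffer cells of Nr1h3 flox/flox control mice (TIM4-positive) and of Nr1h3 flox/flox Clec4f-cre +/- mice (TIM4-positive and TIM4-negative), with bone marrow-derived macrophages (BMDMs) of Nr1h3 wild-type and knockout marrow after 7 days of culture, 2 libraries each. Nr1h3 encodes LXR-alpha, a nuclear receptor for oxysterols and desmosterol. The Smad4 table held Kupffer cells of Smad4 flox/flox controls (2 libraries) and of Smad4 flox/flox Clec4f-cre +/- mice, TIM4-positive (3) and TIM4-negative (2); Smad4 encodes the SMAD shared by TGF-beta and BMP signalling. In the Notch-blockade table, all macrophages were RLMs taken 24 h after toxin: a control pair and 3 libraries with LY411575, a gamma-secretase inhibitor, and a control pair and 4 libraries with antibodies against DLL1 and DLL4, ligands of Notch receptors. The titles separate the controls from the treated libraries there, although the controls carry the drug's label too, and the strain label reads C57BL/6J while the series text names Clec4f-Cre/DTR mice. By the header, the LY411575 set was female, the antibody set male, and both were fasted. Of the 3 tables of cultured cells, 1 held Smad4 control and Smad4 knockout BMDMs (4 days of culture, then TGF-beta, DLL4, or DLL4 with TGF-beta or with the gamma-secretase inhibitor DAPT for 24 h), for which the label gives Clec4f-cre and the series text LysM-cre. Another held C57BL/6J BMDMs exposed to DLL4, TGF-beta or the desmosterol mimetic DMHCA for 24 h (4 days of culture) or 72 h (6 days of culture); the times are those of the titles, since some 72 h libraries also carry a 24 h label. The last held C57BL/6J bone marrow monocytes (2 days of culture) exposed to DLL4, TGF-beta or desmosterol for 48 h. Ages are not given in the labels used here. The labels do not say whether replicate libraries came from separate animals or cultures, so p-values measure the spread between these libraries, which may be technical.

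Libraries held 7830287 to 27776205 gene reads recovered from the TPM values, and the 6 endothelial libraries 13920867 to 18944300. In the endothelial table, the header gives the library token 20180315 for both STAB2-low libraries and 20180211 for the other fractions, so STAB2-low cannot be told apart from that token. The 24 h library RLM024h_106 had the lowest level of all 9 members among the 3 libraries of its group, and results that turn on it are given without it. Nr1h3 stood at 393 to 409 TPM in control Kupffer cells, 391 to 422 in the TIM4-positive and 341 to 395 in the TIM4-negative Kupffer cells labelled knockout, so the summed exons do not check that label; in BMDMs it was 41.9 to 43.3 in wild type and 8.05 to 8.81 in knockout. Smad4 was 33.4 to 35.7 TPM in control Kupffer cells and 13.7 to 21.5 in the knockout groups, and 20.4 to 26.5 against 8.52 to 11.3 in BMDMs.

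A promoter sequence is shown for 4 members because their transcripts separated differently across the samples described below: Stab2, which was also high in Kupffer cells, Adam23, which fell furthest with STAB2, Clec4g, among the highest, and Kdr, which was also present in cultured macrophages. The sequences are RefSeq's (GRCm38.p6, the NCBI name of the mm10 build), which gave an entry for 6 of the 9 members (these 4, Igfbp7 and Flt4). Each line holds the 250 bases before the gene's start, 5′ to 3′ on the gene's strand. Stab2 lies at chr10:87007943-87008192 on the minus strand, Clec4g at chr8:3720652-3720901 on the minus strand, Kdr at chr5:75978456-75978705 on the minus strand and Adam23 at chr1:63445641-63445890 on the plus strand. Capitals mark matches to the motifs named after them.
Stab2: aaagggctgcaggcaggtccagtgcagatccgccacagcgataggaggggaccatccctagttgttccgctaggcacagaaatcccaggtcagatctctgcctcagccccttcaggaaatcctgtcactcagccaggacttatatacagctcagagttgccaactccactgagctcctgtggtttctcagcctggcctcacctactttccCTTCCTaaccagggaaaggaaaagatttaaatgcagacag
Clec4g: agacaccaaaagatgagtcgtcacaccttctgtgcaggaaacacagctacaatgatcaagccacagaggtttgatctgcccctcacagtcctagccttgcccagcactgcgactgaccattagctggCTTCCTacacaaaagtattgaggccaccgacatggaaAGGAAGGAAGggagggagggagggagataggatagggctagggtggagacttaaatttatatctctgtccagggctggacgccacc
Kdr: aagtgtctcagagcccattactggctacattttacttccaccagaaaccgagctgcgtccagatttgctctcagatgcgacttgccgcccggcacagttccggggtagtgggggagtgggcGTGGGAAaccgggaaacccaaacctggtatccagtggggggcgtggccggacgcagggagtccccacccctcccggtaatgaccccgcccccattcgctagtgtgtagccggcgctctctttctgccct
Adam23: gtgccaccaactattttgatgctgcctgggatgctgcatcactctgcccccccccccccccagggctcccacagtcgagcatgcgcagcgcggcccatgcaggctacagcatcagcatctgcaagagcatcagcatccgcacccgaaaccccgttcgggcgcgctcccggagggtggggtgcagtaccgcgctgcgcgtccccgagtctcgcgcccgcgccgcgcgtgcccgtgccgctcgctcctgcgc
Both strands were searched for 3 motifs. AGATAA is a core sequence bound by GATA factors. AGGAAG is a core of ETS factor sites and reads CTTCCT on the opposite strand. GTGGGAA is a site of RBPJ, the DNA-binding effector of Notch. In the full windows of 300 bases, which run 50 bases past the start, AGATAA was found in 0 of the 6 members and in 11.2% of all 32851 windows. AGGAAG was found in 2 members, 3 times in Clec4g (2 of these matches overlap) and 1 time in Stab2, and in 35.4% of all windows. GTGGGAA was found in Kdr alone and in 6.38% of all windows.

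The first comparison asked how the members follow STAB2 across the sorted endothelium. The sort was on STAB2, so the Stab2 transcript is a description of the fractions: 116 and 67.0 TPM in STAB2-low (the library ending in 210 first, here and below), 1419.5 and 1190.1 in STAB2-int, and 1713 and 1575 in STAB2-high. Its level in STAB2-low was 5.57% of that in STAB2-high. Of the 8 members not used for sorting, 7 were lower in STAB2-low than in STAB2-high with the call rule used throughout (limma on log2(TPM + 1), Benjamini-Hochberg adjusted p below 0.05 over all genes tested, and at least 2-fold); of all 10576 genes, 5.54% were called lower. The median log2 difference of the 8 was -2.13, against 0.076 over all genes tested. Gata4 was the exception and was not called.

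Adam23 and Lyve1 fell furthest. Adam23 was at 32.2 and 31.1 TPM in STAB2-low, 584 and 600.4 in STAB2-int, and 655 and 647 in STAB2-high. The STAB2-low libraries were near a common floor and far below the others; the difference from STAB2-high was 20.6-fold lower (log2 -4.32 ± 0.08, SE, limma adjusted p = 7.3e-06). Lyve1 was at 49.8 and 54.6 TPM in STAB2-low, 718 and 484 in STAB2-int, and 979 and 667 in STAB2-high. Its STAB2-int and STAB2-high libraries overlapped, and STAB2-low was 15.8-fold below STAB2-high (log2 -3.93 ± 0.24, limma adjusted p = 0.00013).

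The secreted and lectin genes kept much higher floors. Clec4g was at 747 and 655 TPM in STAB2-low, 4239 and 3638 in STAB2-int, and 3929 and 4014 in STAB2-high. In STAB2-low it was thus within the range of Lyve1 in STAB2-int and STAB2-high, yet 5.67-fold below its own STAB2-high level (log2 -2.51 ± 0.13, limma adjusted p = 8.8e-05). Oit3 was at 536 and 475 TPM in STAB2-low, 1912 and 1651 in STAB2-int, and 2109 and 1964 in STAB2-high, 4.03-fold lower in STAB2-low (log2 -2.01 ± 0.12, limma adjusted p = 0.00014). Igfbp7 was at 1547 and 1458 TPM in STAB2-low, 4524 and 4121 in STAB2-int, and 3721 and 4271 in STAB2-high. It differed least of the 7 (2.66-fold, log2 -1.41 ± 0.13, limma adjusted p = 0.00055), and it was the only member whose mean was highest in STAB2-int (4323 against 3996 TPM, groups overlapping).

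Both VEGF receptors were lower in STAB2-low. Flt4 was at 182 and 162 TPM in STAB2-low, 723 and 606 in STAB2-int, and 878 and 775 in STAB2-high (4.80-fold lower in STAB2-low, log2 -2.26 ± 0.13, limma adjusted p = 0.00011). Kdr was at 446 and 377 TPM in STAB2-low, 1336 and 1061 in STAB2-int, and 1555 and 1261 in STAB2-high (3.42-fold lower, log2 -1.77 ± 0.17, limma adjusted p = 0.00059). For both, the STAB2-low libraries were separated from all others. Of the other VEGF ligands and receptors, 7 of 8 listed were tested: Vegfc, the ligand of Flt4, was called higher in STAB2-low (143 against 7.03 TPM, log2 4.21), as was Vegfd, its other ligand, and Vegfb was called lower (21.6 against 45.6 TPM, log2 -1.05).

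Gata4 went the other way without passing the test. It was at 417 and 311 TPM in STAB2-low, 302 and 206 in STAB2-int, and 275 and 204 in STAB2-high, so the library ending in 210 was the higher one in each fraction. The STAB2-low libraries lay above both STAB2-high libraries (means 364 ± 75 and 239 ± 51, SD, n = 2), with a log2 difference of 0.60 ± 0.24 (limma adjusted p = 0.11). Of the other GATA factors and their FOG partners, 4 of 7 were tested and 2 were called higher in STAB2-low, Gata6 and Zfpm2, a FOG partner of GATA4 (20.2 against 8.14 TPM, log2 1.21).

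STAB2-int stood close to STAB2-high. Between them limma called 0 of the 8 members in either direction (1 had an unadjusted p under 0.05, and limma-voom on the recovered reads called 0), against 0.00946% of all genes, which is 1 gene. The median log2 difference of the 8 was -0.17. STAB2-int libraries were below STAB2-high libraries without overlap for Oit3, Flt4 and Adam23, with log2 differences of -0.20, -0.32 and -0.14 (limma adjusted p = 0.72, 0.60 and 0.71). Against STAB2-int, STAB2-low was lower for the same 7 members that were called against STAB2-high (3.94% of all genes were called lower), by log2 -4.18 for Adam23, -3.47 for Lyve1, -2.49 for Clec4g, -1.94 for Flt4, -1.82 for Oit3, -1.54 for Kdr and -1.52 for Igfbp7. Among libraries with the same title number, STAB2-int was below STAB2-high in both pairs for Lyve1, Kdr, Oit3, Flt4 and Adam23; the labels do not say what the number marks. The comparisons with STAB2-low share its libraries. Gata4 again was not called (log2 0.53, limma adjusted p = 0.17).

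**Figure D1:**
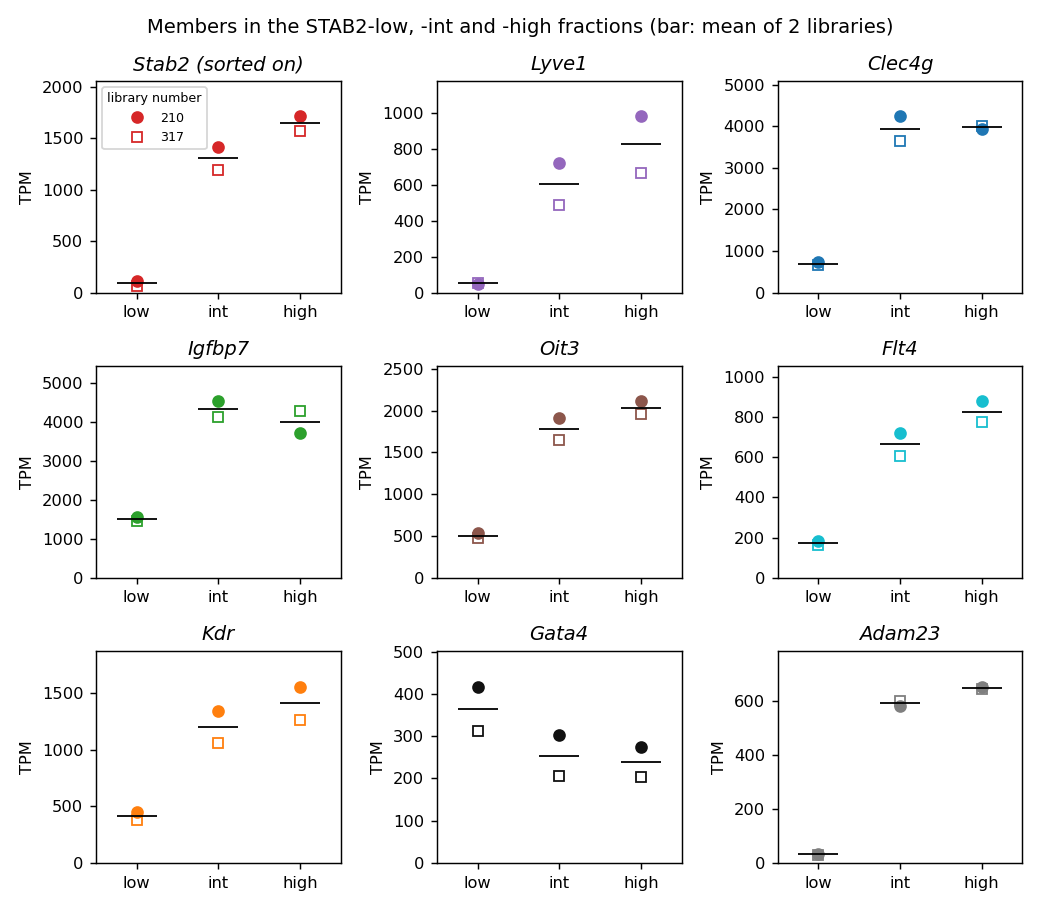
Each panel plots the TPM of 1 member (vertical axis, linear) in the STAB2-low, STAB2-int and STAB2-high fractions; filled and open symbols are the libraries of each fraction and bars are means of 2. For 8 members STAB2-low sits lowest, while Gata4 is highest there, at 417 and 311 TPM.

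The STAB2-low cells were endothelial by other markers. The 13 pan-endothelial genes summed to 10410 to 11650 TPM in STAB2-low and 9211 to 10040 in STAB2-high; 1 was called higher in STAB2-low (Pecam1, an adhesion molecule of endothelial junctions, 1433 against 651 TPM, log2 1.14) and the median log2 difference was 0.16. Of 14 further genes known from sinusoidal endothelium, 10 were called lower in STAB2-low (median log2 -1.80), among them the Fc receptor gene Fcgr2b (461 against 3738 TPM) and the growth factor gene Bmp2 (121 against 986 TPM). Of 9 genes of large or periportal vessels, 8 were called higher (median log2 4.45), led by Vwf, the von Willebrand factor gene (1522 against 1.76 TPM). Of 6 pericentral genes, 4 were called higher, led by the Wnt-pathway genes Rspo3 (976 against 11.6 TPM) and Wnt9b (529 against 7.61 TPM). Kupffer cell markers summed to 65.2 to 78.5 TPM in STAB2-low and 93.4 to 113 in STAB2-high, with 0 of 6 tested called, and hepatocyte markers to 57.5 to 67.8 and 209 to 223, with 5 of 7 called lower. Lymphatic markers, for which Lyve1 and Flt4 are also known, summed to 1.28 to 2.43 and 3.38 to 3.85 TPM. In such bulk samples, fewer cells of a type and less RNA per cell cannot be told apart.

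Genes related to single members by family also differed between the fractions. Of 10 such genes, 6 were tested, of which 3 were called higher (Gata6, Igfbp3 and Igfbp5) and 1 lower in STAB2-low. Igfbp5, a binding protein of the same family as Igfbp7, was at 81.8 against 1.54 TPM (log2 5.05), and Igfbp3 at 11.0 against 1.77 TPM (log2 2.11). Stab1, the paralog of Stab2, was called lower, at 525 against 1191 TPM (log2 -1.19). Among 7 tested genes for signals from this niche, the Notch ligands Jag1 (168 against 5.48 TPM, log2 4.70) and Dll1 (67.3 against 12.8 TPM, log2 2.30) were called higher and Bmp2 and Bmp6 (52.5 against 151.1 TPM, log2 -1.51) lower.

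Outside the endothelium, the members were far lower. The tables were normalized separately, so levels are set side by side here without a test. In PBS-treated Kupffer cells, 7 members were at 1.25% to 2.50% of their STAB2-high mean: Kdr 1.25%, Oit3 1.29%, Adam23 1.44%, Clec4g 1.65%, Flt4 1.65%, Igfbp7 2.21% and Gata4 2.50%. Lyve1, at 5.51%, and Stab2, at 6.71%, stood above that range in these cells. In control Kupffer cells of the Nr1h3 table Stab2 was at 3.30%, while Lyve1 (2.46%) lay within the range of the others, from Oit3 at 0.516% to Gata4 at 2.67%. In control Kupffer cells of the Smad4 table, the members other than Stab2 were at 0.358% (Oit3) to 1.19% (Gata4) and Stab2 was at 6.12%. Over all 47 groups, Stab2 had PBS-treated Kupffer cells directly after STAB2-int, at 110 ± 16 TPM (SD, n = 3), and STAB2-low below them at 91.6 TPM, where the 2 groups overlapped. For Clec4g, Flt4, Kdr, Oit3 and Gata4 the 3 endothelial fractions were followed by RLMs at 12 h (151.4, 25.0, 47.5, 48.1 and 12.2 TPM) and at 24 h (126, 23.5, 30.03, 47.9 and 9.57 TPM), whose libraries overlapped. Without RLM024h_106 the 24 h means were 168, 31.3, 38.7, 64.2 and 12.0 TPM, so that Clec4g, Flt4 and Oit3 were then higher at 24 h than at 12 h. Adam23 had RLMs at 12 h (26.1 TPM) next after STAB2-low and overlapping it. For Lyve1, the Kupffer cells labelled Nr1h3 knockout came next after STAB2-int (124 and 108 TPM), above STAB2-low (52.2 TPM). For Igfbp7, cultured BMDMs with DLL4 and TGF-beta for 72 h came next after the endothelial fractions (211 TPM).

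The time course compared cells replacing Kupffer cells with their blood monocyte source and with PBS-treated Kupffer cells. In blood monocytes the members were at or near 0: Gata4 and Adam23 had 0 reads in all 4 libraries, Stab2 was at most 0.035 TPM, Lyve1 0.143 and Clec4g 0.597. The 9 passed the filter on low values in this table only through liver libraries, where they are higher. Their p is therefore not given and no count is drawn, while 19.2% of all genes were called higher in Kupffer cells. The log2 difference, Kupffer cells minus monocytes, was 6.77 for Stab2, 6.33 for Igfbp7, 5.60 for Clec4g, 5.36 for Lyve1, 4.71 for Oit3, 4.09 for Kdr, 3.83 for Flt4, 3.34 for Adam23 and 2.75 for Gata4. Against a floor of 3 reads in each monocyte library, Adam23 was at least 133-fold and Gata4 at least 46.5-fold higher in Kupffer cells. In the RLMs of 12 h, 24 h and 336 h, too, all 9 had higher means than in monocytes, and again no count is drawn. Of all genes, 12.5%, 17.7% and 16.0% were called higher there. These comparisons share the monocyte libraries.

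Stab2 was low early in the repopulating cells and then moved toward the Kupffer level. It was at 51.9 and 18.4 TPM at 12 h, 9.84, 34.4 and 47.5 after 24 h, 16.97 and 25.9 at 48 h, 35.3 and 44.8 after 72 h, 48.3, 50.3 and 50.2 at 168 h, and 58.8, 62.8 and 64.1 after 336 h, against 129, 100.1 and 102 in Kupffer cells. No RLM library reached the lowest Kupffer library. Against Kupffer cells it was called lower at 12 h (log2 -1.79 ± 0.44, limma adjusted p = 0.0021), 24 h (log2 -2.06 ± 0.39, 0.0003), 48 h (log2 -2.33 ± 0.44, 0.00028), 72 h (log2 -1.44 ± 0.44, 0.015) and 168 h (log2 -1.13, 0.047). The 12 h call was lost without RLM012h_481 (log2 -1.06, limma adjusted p = 0.088). The 168 h call was lost in 17 of the 22 fits that left out 1 library (limma adjusted p up to 0.13), with a pseudocount of 0.25 (0.054) and without the filter on low values (0.079). At 336 h it was not called (log2 -0.82 ± 0.39, limma adjusted p = 0.15), though the groups did not overlap. Without either 72 h library the 72 h call was lost (log2 -1.27, limma adjusted p = 0.10, without RLM072h_32, and log2 -1.61, 0.052, without RLM072h_41).

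The 7 members other than Stab2 and Lyve1 had means above Kupffer cells at 12 h and were lowest at 336 h. Lyve1 was lowest at 336 h too, but its 12 h mean (31.1 TPM) was below its Kupffer mean (45.4 TPM). Clec4g was at 201 and 101 TPM at 12 h, 43.5, 160.0 and 175 after 24 h, 53.8 and 80.6 at 48 h, 105.6 and 82.7 after 72 h, 38.4, 41.4 and 25.8 at 168 h, and 23.1, 23.7 and 29.0 after 336 h, against 74.6, 72.4 and 49.4 in Kupffer cells. Both 12 h libraries were above all Kupffer libraries and all 336 h libraries were below them. Kdr was at 63.4 and 31.7 TPM at 12 h and 4.49, 4.88 and 8.21 at 336 h, against 18.9, 20.2 and 13.8 in Kupffer cells, again with both times outside the Kupffer range. Lyve1 was at 44.5 and 17.7 TPM at 12 h, 16.9, 67.2 and 110 after 24 h, 33.6 and 74.9 at 48 h, 28.0 and 39.8 after 72 h, 16.96, 21.0 and 13.2 at 168 h, and 6.09, 5.38 and 10.8 after 336 h, against 23.3, 52.3 and 60.5 in Kupffer cells. Its 24 h libraries lay on both sides of the Kupffer range, and the highest value was in a 24 h library.

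All comparisons with Kupffer cells share the 3 Kupffer libraries. At 12 h limma called 3 members higher than in Kupffer cells (Kdr, log2 1.32 ± 0.39, adjusted p = 0.0079; Adam23, log2 1.30 ± 0.46, 0.021; Clec4g, log2 1.14 ± 0.44, 0.035) and Stab2 lower, where 23.8% of all genes were called in either direction. The Clec4g call was lost with a pseudocount of 0.25 (limma adjusted p = 0.073), without the filter (0.059) and with quantile normalization (0.057). The count of 4 became 1 without the 12 h library RLM012h_1035 and 2 without the Kupffer library KCctr_166. At 24, 48 and 72 h Stab2 was the only member called, and lower (7.83%, 8.19% and 4.31% of all genes were called lower). At 24 h the other 8 differed by log2 0.25 to 0.73 and were not called. Without RLM024h_106, 7 members were called at 24 h, of which Stab2 was still lower. The others were higher: Clec4g (log2 1.37), Oit3 (log2 1.27), Flt4 (log2 1.13), Adam23 (log2 1.10), Kdr (log2 1.08) and Igfbp7 (log2 1.02). That library was picked for its low member levels, and leaving it out can only raise the 24 h means. The count without it is thus a description and no test.

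At 168 h all 9 members were below Kupffer cells and 3 were called lower (2.72% of all genes): Igfbp7 (35.4 against 88.3 TPM, log2 -1.28, limma adjusted p = 0.017), Flt4 (5.36 against 13.7 TPM, log2 -1.27, 0.047) and Stab2. The Flt4 call was lost in 14 of the 22 fits that left out 1 library. The count was 0 without RLM168h_568, RLM168h_571 or KCctr_164, 5 without RLM024h_106, and 1 without any 1 of the 4 blood monocyte libraries, either 72 h library, RLM336h_565 or RLM336h_566, or KCctr_31 or KCctr_166. At 336 h, 8 of 9 were called lower (2.89% of all genes), with a median log2 of -1.46 against -0.058 over all genes tested. Lyve1 was the furthest below (7.44 against 45.4 TPM, log2 -2.41 ± 0.52, limma adjusted p = 0.0038). Flt4 (2.87 against 13.7 TPM) and Oit3 (6.09 against 26.3 TPM) both differed by log2 -1.96, followed by Igfbp7 (-1.66), Kdr (-1.46), Adam23 (-1.37), Clec4g (-1.33) and Gata4 (-1.05), with limma adjusted p = 0.0039 to 0.025. The count was 5 without RLM336h_565, RLM336h_566, KCctr_31 or KCctr_164.

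**Figure D2:**
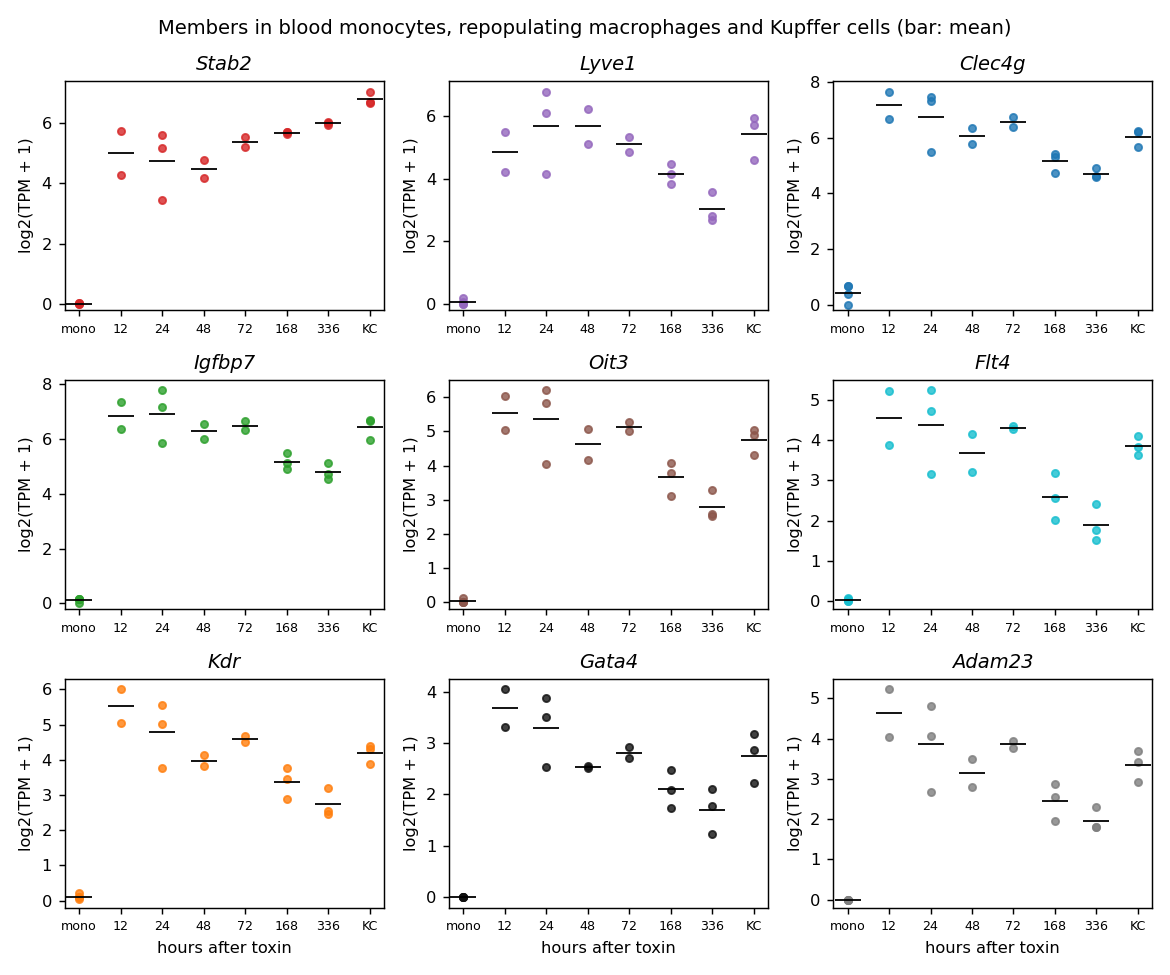
Each panel plots log2(TPM + 1) of 1 member (vertical axis) in blood monocytes (mono), RLMs at 12 to 336 h after toxin and PBS-treated Kupffer cells (KC); points are libraries and bars are means. Stab2 climbs from 48 h to its highest values in Kupffer cells, while the other 8 are lowest, after monocytes, at 336 h.

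Markers of endothelium and of macrophages also differed between these groups. Pan-endothelial markers were present in every RLM and Kupffer group, with 0 of 13 at 0. Cdh5, the gene of VE-cadherin, differed from the other 12: it was at 31.5 TPM at 12 h, 50.7 after 24 h, 135 at 48 h, 194 after 72 h, 365 at 168 h, 382 after 336 h and 456 ± 18 (SD, n = 3) in Kupffer cells, and was called lower than in Kupffer cells from 12 to 72 h. It was nearest to its Kupffer level at 168 and 336 h. The other 12 pan-endothelial genes summed to 204 to 386 TPM at 12 h, 178 to 424 after 24 h, 183 to 267 at 48 h, 246 to 271 after 72 h, 165.96 to 271 at 168 h, 179 to 197 after 336 h and 265 to 297 in Kupffer cells. At 336 h, 6 of the 13 were called lower than in Kupffer cells (Esam, an endothelial adhesion molecule gene, Ptprb, an endothelial phosphatase gene, and Egfl7 among them), with a median log2 of -0.99, and 4 of the 14 other sinusoidal genes were called lower, led by the water channel gene Aqp1 (23.2 against 78.6 TPM). Kupffer cell markers summed to 1335 to 1371 TPM at 12 h, 8363 to 10020 at 72 h, 18400 to 18540 at 336 h and 20480 to 22280 in Kupffer cells. The part of endothelial RNA or endothelial cells in the members' levels was not tested.

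Among other VEGF pathway genes at 12 h, 3 of 4 tested were called higher than in Kupffer cells: the coreceptor genes Nrp2 (30.4 against 3.23 TPM, log2 2.90) and Nrp1 (124 against 47.9 TPM, log2 1.35), and Flt1, the gene of VEGFR1 (19.3 against 4.63 TPM, log2 1.77). The scavenger receptor gene Mrc1, of sinusoidal endothelium and of macrophages, was at 53.0 TPM at 12 h and 801 in Kupffer cells.

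The 7 members other than Stab2 and Lyve1 rose and fell together across the 18 RLM and Kupffer libraries, which does not mean that their ratios were constant. Pearson r of log2(TPM + 1) over these libraries, which share a table and differ in depth, was 0.928 to 0.989 over their 21 pairs (median 0.968). With Lyve1 the r of the 7 was 0.713 to 0.877 (median 0.788). With Stab2 the r of the other 8 members was -0.129 to -0.014 (median -0.085). Over the 47 group means, which come from 8 tables normalized separately and include the endothelial fractions, r with Stab2 was 0.758 to 0.934, so the split is seen within the macrophage libraries and not over the whole series. These correlations are descriptions and carry no test.

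Stab2 and Lyve1 were therefore also set against the summed TPM of the 7. Stab2 was 13.1% and 12.0% of that sum in STAB2-high, 10.4% and 10.0% in STAB2-int, and 2.97% and 1.93% in STAB2-low. At 12 h it was 8.99% and 6.45%, and after 24 h 8.08%, 6.74% and 7.78%, all below STAB2-int and above STAB2-low. At 48 h it was 10.2% in both libraries, between the values of STAB2-int. It was 11.7% and 17.5% after 72 h, 37.9%, 65.3% and 45.0% at 168 h, 70.5%, 102% and 91.0% after 336 h, and 49.6%, 39.2% and 61.9% in PBS-treated Kupffer cells. Every library from 168 h on, and every PBS-treated Kupffer library, was thus above all 3 endothelial fractions. Lyve1 was 7.46% and 5.07% of the sum in STAB2-high, 18.6%, 11.6% and 15.2% after 24 h, 29.4% and 20.2% at 48 h, 11.9%, 8.75% and 9.44% after 336 h, and 8.99%, 20.4% and 36.6% in Kupffer cells.

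**Figure D3:**
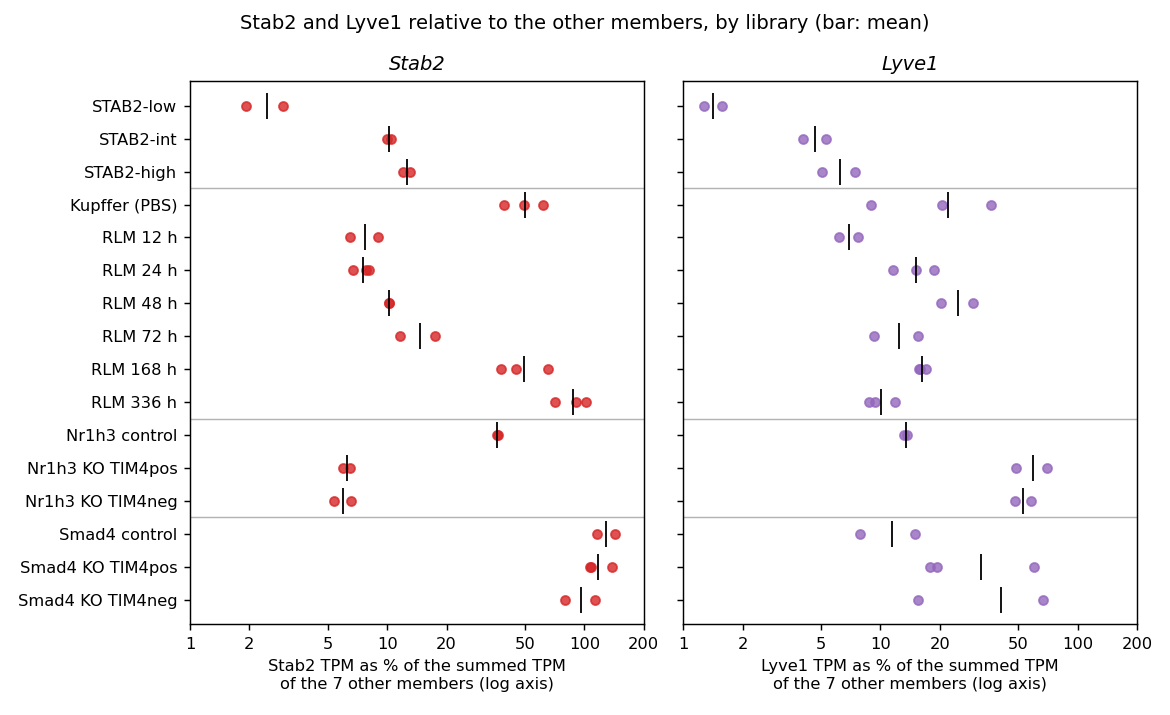
Stab2 (left) and Lyve1 (right) as a percent of the summed TPM of the 7 other members (horizontal log axis) for each library, with bars at group means. Stab2 is at most 13.1% in the endothelial fractions and 70.5% to 102% in RLMs at 336 h, and the libraries labelled Nr1h3 knockout show Stab2 near 6% and Lyve1 at 48.0% to 70.3%.

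The Nr1h3 table asked what depends on LXR-alpha in Kupffer cells. Of the 9 members, Stab2 was called lower and Lyve1 higher in the TIM4-positive Kupffer cells labelled knockout (2.86% of all genes were called in either direction), and the same 2 in the TIM4-negative ones (4.16%). Stab2 was at 53.5 and 55.1 TPM in control, 15.6 and 11.2 in TIM4-positive and 13.5 and 10.8 in TIM4-negative knockout-labelled cells. The control libraries were above all 4 others, 4.05-fold (log2 -1.96 ± 0.15, limma adjusted p = 7.5e-05) and 4.46-fold (log2 -2.08 ± 0.15, 3.4e-05). Lyve1 was at 20.4 and 20.1 TPM in control, 118 and 131 in TIM4-positive and 99.1 and 117 in TIM4-negative knockout-labelled cells. It was 6.14-fold higher (log2 2.56 ± 0.10, limma adjusted p = 2.7e-06) and 5.34-fold higher (log2 2.36 ± 0.10, 1.8e-06), the highest Lyve1 of any group outside STAB2-int and STAB2-high.

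The 7 others stayed under 2-fold in both. Oit3 was the nearest to it, at 10.7 and 10.3 TPM in control and 21.2 and 18.01 in TIM4-positive knockout-labelled cells (log2 0.83, limma adjusted p = 0.00046), and log2 0.64 (0.0013) in TIM4-negative cells. In TIM4-positive cells Clec4g differed by log2 0.49 (limma adjusted p = 0.022), Adam23 by 0.46 (0.041), Kdr by 0.50 (0.058), Flt4 by 0.46 (0.064), Igfbp7 by 0.43 (0.13) and Gata4 by 0.10 (0.78). Between TIM4-negative and TIM4-positive knockout-labelled cells limma called 0 of 9 members (0 at an unadjusted p under 0.05, 0 by limma-voom, and 0.597% of all genes), and Lyve1 differed by log2 -0.20 (limma adjusted p = 0.50).

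Cdh5 was lower as well: it was at 530 TPM in control and 125 and 99.0 in the TIM4-positive and TIM4-negative knockout-labelled cells (log2 -2.07 and -2.41, limma adjusted p = 1.6e-06 and 3.1e-07). The other 12 pan-endothelial genes summed to 164.4 to 173.6 TPM in control and 258 to 305 and 261 to 294 in the knockout-labelled groups, with Eng, a TGF-beta coreceptor gene, called higher in both (75.9 against 35.0 TPM in TIM4-positive cells). Of the 14 other sinusoidal genes, 1 was called higher in TIM4-positive cells, the fatty acid receptor gene Cd36 (147 against 52.2 TPM, log2 1.50), and 2 in TIM4-negative cells (Cd36 and Maf). Kupffer cell markers summed to 24860 to 25420 TPM in control, 16700 to 17430 in TIM4-positive (2 of 8 called lower, Cd5l and Clec4f) and 14330 to 14360 in TIM4-negative cells (4 of 8 called lower, Cd5l, Clec4f, Marco and Timd4, which encodes the TIM4 used for sorting). The part of endothelial cells in the Lyve1 difference was not tested.

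Against wild-type BMDMs, 7 members were far higher in control Kupffer cells. They passed the filter on low values only through Kupffer cell libraries, so no count is drawn, while 20.6% of all genes were called higher. Stab2 was at 54.3 against 0.104 TPM (log2 5.65) and Igfbp7 at 55.2 against 2.31 TPM (log2 4.09). Clec4g, Gata4 and Adam23 had 0 reads in BMDMs (at least 252-, 97.0- and 288-fold against 3 reads a library). The remaining 2, Oit3 (10.5 against 5.56 TPM, log2 0.81) and Kdr (14.3 against 9.82 TPM, log2 0.50), were present in BMDMs at levels within 2-fold of Kupffer cells.

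**Figure D4:**
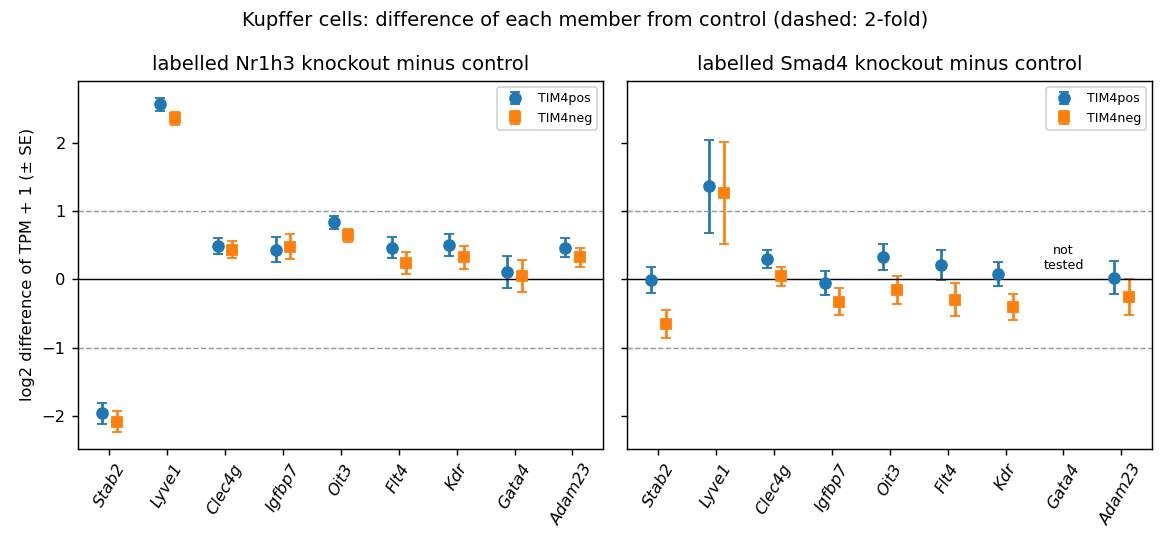
The log2 difference of TPM + 1 from control Kupffer cells (vertical axis, ± SE from limma) for each member in TIM4-positive (circles) and TIM4-negative (squares) cells, for Nr1h3 (left) and Smad4 (right); dashed lines mark 2-fold. In the Nr1h3 panel Stab2 is near -2 and Lyve1 above 2, and in the Smad4 panel the SE of Lyve1 spans more than that of any other member.

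In the Smad4 table, Gata4 was under the filter on low values and limma called 0 of the 8 tested members in TIM4-positive cells (0 at an unadjusted p under 0.05, 0 by limma-voom, and 0.965% of all genes) and 0 in TIM4-negative cells (1 at an unadjusted p under 0.05, 0 by limma-voom, and 1.62% of all genes). Stab2 was at 104.2 and 97.1 TPM in control, 84.8, 120 and 98.2 in TIM4-positive and 54.5 and 74.8 in TIM4-negative knockout cells. The TIM4-positive libraries spanned the controls, and the TIM4-negative ones lay below them (log2 -0.65 ± 0.21, limma adjusted p = 0.20). Lyve1 was at 11.0 and 6.60 TPM in control, 47.5, 16.8 and 16.2 in TIM4-positive and 45.8 and 10.3 in TIM4-negative knockout cells. The libraries whose titles end in _716 carried the high values in both groups (log2 1.36 ± 0.68 and 1.27 ± 0.74, limma adjusted p = 0.45 and 0.48), and without both the count stayed at 0. Cdh5 was at 488 TPM in control and 224 ± 99 (SD, n = 3) and 157 in the knockout groups, where it was not called (limma adjusted p = 0.24 and 0.13). Kupffer cell markers summed to 22320 to 22970 TPM in control, 15550 to 17650 in TIM4-positive (1 of 8 called lower, Clec4f) and 11460 to 12520 in TIM4-negative knockout cells (2 of 8, Clec4f and Timd4).

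The Notch-blockade table asked whether the members in RLMs at 24 h depend on gamma-secretase or on DLL1 and DLL4. Of 8 tested members (Gata4 was under the filter), limma called 0 with LY411575 (0 at an unadjusted p under 0.05, 0 by limma-voom, 6.38% of all genes) and 0 with the antibodies (3 at an unadjusted p under 0.05, 1 by limma-voom, 2.07% of all genes). The difference between both effects was called for 0 of 8 (2 at an unadjusted p under 0.05, 0 by limma-voom, 5.38% of all genes). Kdr was at 8.88 and 9.10 TPM in the LY411575 controls and 13.0, 15.6 and 13.6 with the inhibitor, without overlap (log2 0.58, limma adjusted p = 0.19). Flt4 was at 3.08 and 4.91 TPM in the antibody controls and 12.8, 10.1, 9.25 and 4.74 with the antibodies. The lowest treated library, number 4, overlapped the controls, and Flt4 was not called (log2 0.99 ± 0.31). It passed the filter on low values in this table only with the antibody-treated libraries, where it was higher, so its p is not given. The counts for the antibodies and for the difference between both effects include Flt4, the 1 member that limma-voom called with the antibodies. For Flt4 these counts are thus a description and no test. Without library 4, picked for its low Flt4 value, the difference of Flt4 with the antibodies was log2 1.25, and the LY411575 effect minus it was log2 -1.33. Oit3 passed the p threshold with the antibodies but stayed under 2-fold (log2 0.77, limma adjusted p = 0.049), at 6.89 and 10.2 TPM in controls and 21.2, 13.9, 16.0 and 10.5 treated, without overlap. Stab2 was at 4.39 and 4.57 TPM in the antibody controls and 14.6, 8.10, 8.12 and 5.64 treated (log2 0.81, limma adjusted p = 0.089). Pan-endothelial markers summed to 115 to 117 TPM in the LY411575 controls and 56.96 to 58.9 treated, and to 94.1 to 131 in the antibody controls and 86.7 to 152 treated. The 14 other sinusoidal genes summed to 1190 to 1215 TPM and 1467 to 1532 with LY411575, and to 1117 to 1164 and 1454 to 1598 with the antibodies, so treated libraries were higher without overlap in both sets. That list is not specific to endothelium: its sum was 2336 and 2426 TPM in untreated BMDMs at 24 h and 2812 and 2762 in untreated marrow monocytes. Cdh5 was called lower with LY411575 (29.5 to 7.18 TPM, log2 -1.91, limma adjusted p = 5.2e-06), where Stab2 was at means of 2.98 and 2.59 TPM (log2 -0.16, limma adjusted p = 0.74). The markers' part in the members' values was not tested.

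In cultured cells, which had no liver endothelium beside them, most members were near 0. Adam23 reached at most 0.29 TPM, Clec4g 0.49, Flt4 0.599, Gata4 0.177, Lyve1 0.193 and Stab2 1.20 in any library of the 3 culture tables without Kupffer cells. Igfbp7, Oit3 and Kdr were the exceptions, so their label as endothelial genes does not hold for every sample of the series. The 13 pan-endothelial markers summed to 30.7 to 33.7 TPM in untreated BMDMs at 24 h, 39.5 to 39.8 at 72 h and 42.4 to 44.2 in untreated marrow monocytes, with 3, 4 and 7 of them at 0.

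Igfbp7 was higher in longer BMDM culture. It was at 6.34 and 3.01 TPM in untreated BMDMs at 24 h and 70.9 and 63.3 at 72 h (14.4-fold, log2 3.65 ± 0.25, limma adjusted p = 2.6e-08), a comparison added after the values were seen, in which 6.44% of all genes were called higher and Igfbp7 was the 1 of 3 tested members called. Markers of stellate cells and fibroblasts, such as collagens, summed to 9.17 to 9.24 TPM at 24 h and 71.1 to 74.6 at 72 h, and hepatocyte markers to 27.3 to 29.4 and 288 to 299; their part in the Igfbp7 value was not tested. At 72 h Igfbp7 was at 95.6 and 93.1 TPM with DLL4, above the untreated libraries but not called (log2 0.49, limma adjusted p = 0.23), and 202 and 220 with DLL4 and TGF-beta. TGF-beta on top of DLL4 was thus followed by a 2.23-fold higher level (log2 1.15, limma adjusted p = 0.0024), with 4.02% of all genes called higher and 1 of 3 tested members. DMHCA for 24 h gave 1.91 and 1.09 TPM, 3.12-fold below untreated (log2 -1.14 ± 0.25, limma adjusted p = 0.002). That call was lost without untreated library 1 (log2 -0.70, limma adjusted p = 0.027) and without DMHCA library 2 (log2 -0.90, 0.029), where the difference came under 2-fold.

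Kdr and Oit3 differed with other agents. Kdr was at 0.671 and 0.578 TPM untreated and 6.90 and 6.49 with DMHCA (10.7-fold higher, log2 2.24). It passed the filter on low values in this table only through these DMHCA libraries, so its p is not given and no count of members is drawn from it; 5.43% of all genes were called in either direction with DMHCA. With DLL4 at 72 h Kdr was at 1.54 and 1.73 TPM against 0.502 and 0.499, without overlap but under 2-fold on the log2(TPM + 1) scale (log2 0.81, limma adjusted p = 0.0011). Of the 3 tested members limma called 0 with DLL4 at 72 h (2 at an unadjusted p under 0.05, 1 by limma-voom, 1.73% of all genes) and 0 with DLL4 at 24 h (2 at an unadjusted p under 0.05, 0 by limma-voom, 2.75% of all genes).

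Oit3 was present in cultured marrow monocytes and near 0 in them with DLL4. It was at 17.9 and 16.3 TPM untreated and 16.0 and 16.3 with desmosterol. With DLL4 it was at 0.127 and 0.334 TPM, with DLL4 and TGF-beta it had 0 reads in both libraries, and with desmosterol added to these it was at 0.03 and 0.06. The untreated mean was 74.1-fold above that with DLL4 (log2 -3.88). Oit3 passed the filter on low values in this table only through the untreated and desmosterol libraries, where it is high, so its p is not given; 10.4% of all genes were called lower with DLL4. In BMDMs at 72 h, adding TGF-beta to DLL4 took Oit3 from 10.0 and 10.8 to 4.53 and 5.10 TPM, just under 2-fold on the log2 scale (log2 -0.97, limma adjusted p = 5.4e-05).

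In Smad4 control BMDMs, Oit3, again the only member tested, was at 5.80 and 4.06 TPM untreated, 2.60 and 2.48 with DLL4, 4.46 and 5.38 with DLL4 and DAPT, 2.60 and 2.56 with TGF-beta, and 0.573 and 1.39 with DLL4 and TGF-beta. The libraries with DLL4 or TGF-beta and no DAPT lay below all untreated and DAPT libraries. Both single agents stayed under 2-fold on the log2(TPM + 1) scale, at log2 -0.73 for DLL4 and log2 -0.71 for TGF-beta. Of the control libraries, only untreated and DAPT ones reached the 4 TPM of the filter, and Oit3 is higher there. The p of these comparisons is therefore not given and no count is drawn. Of all genes, 4.06% were called with DLL4 and 4.17% with TGF-beta. In Smad4 knockout BMDMs it was at 7.18 and 8.38 TPM untreated, 7.28 and 7.19 with TGF-beta, and 3.15 and 3.37 with DLL4. There limma called 0 of 1 for TGF-beta (log2 -0.09, adjusted p = 0.86; 0 at an unadjusted p under 0.05, 0 by limma-voom, 0.545% of all genes). The difference of the TGF-beta effects, knockout minus control, was log2 0.62 ± 0.27. It uses the same control libraries, so its p is not given either and no count is drawn, while 1.2% of all genes were called. Both TGF-beta comparisons of knockout cells were added after the values were seen.

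**Figure D5:**
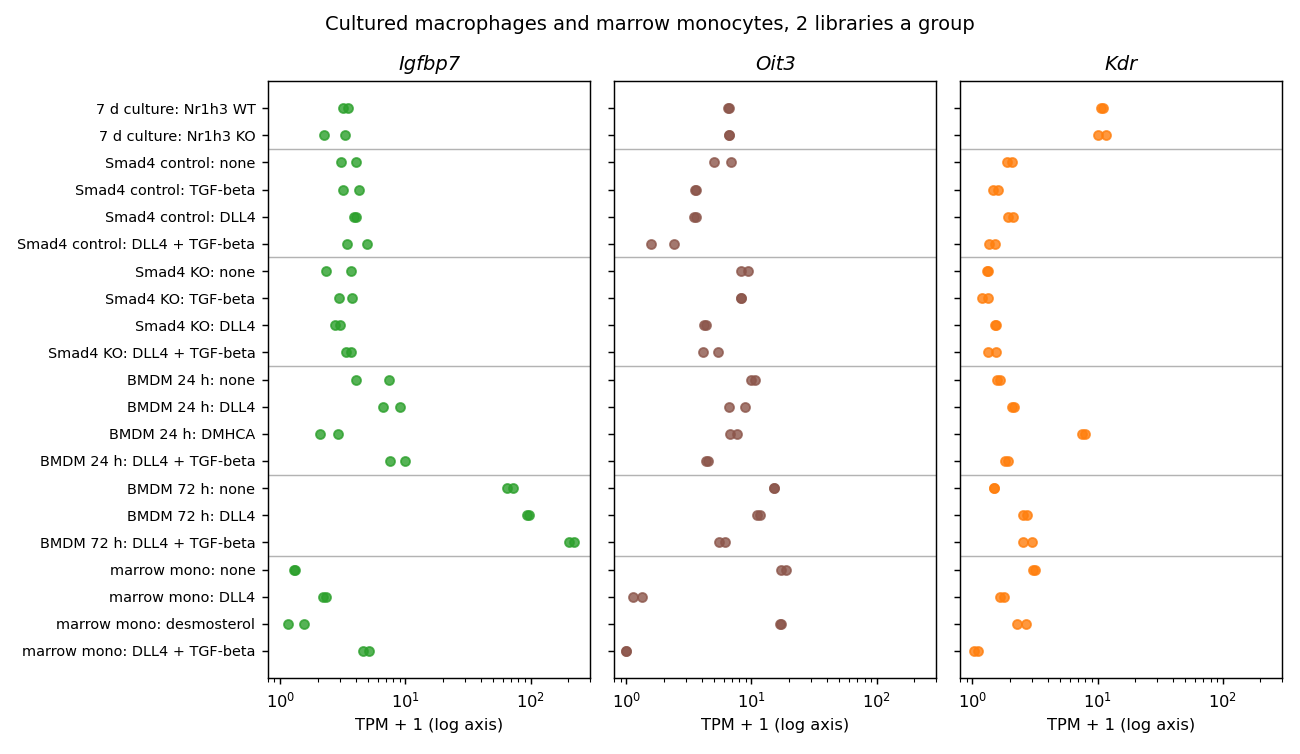
TPM + 1 (horizontal log axis) of Igfbp7, Oit3 and Kdr in cultured BMDMs and bone marrow monocytes (marrow mono), with 2 libraries a group shown as points. Igfbp7 is highest in BMDMs at 72 h with DLL4 and TGF-beta (202 and 220 TPM), Kdr stands out with DMHCA (6.90 and 6.49 TPM) and in 7-day BMDMs, and Oit3 is at or near 0 in marrow monocytes with DLL4.

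Likeness to other genes was described by Pearson r of log2(TPM + 1), with no test. It was taken over the 47 group means (5183 genes) and over the 18 RLM and Kupffer libraries (10480 genes). The group means and libraries share tables, depth and cell mixtures. The 5183 genes had the same transcript model in all tables and also reached a minimum TPM in a STAB2 fraction. That choice favours genes of this endothelium as neighbours over the groups, so their endothelial identity there is not a result. Over the groups the nearest gene was Cdh5 for Stab2 (r = 0.948), Ehd3, a membrane-trafficking gene of sinusoidal endothelium, for Lyve1 (0.955) and Clec4g (0.988), Cyp4b1 for Flt4 (0.992), Bmp2 for Adam23 (0.989), Tspan7 for Kdr (0.982), Ramp2, Clec14a and Sox18 for Gata4 (0.995 each), Msrb3 for Igfbp7 (0.957) and Coro2b for Oit3 (0.918). Within the liver macrophage libraries, the nearest were Ptprb for Oit3 (0.990) and Kdr (0.978), Aqp1 for Igfbp7 (0.984), C1qtnf1 for Flt4 (0.986), Clec14a for Clec4g (0.979), Sema6a for Adam23 (0.979) and Adgrl4 for Gata4 (0.967). Stab2 and Lyve1 again had other neighbours there: Rasal2 (0.948), Arap3 (0.925) and Myo10 (0.920) for Stab2, and the basement membrane genes Nid1 (0.927), Col4a2 (0.927) and Lamc1 (0.919) for Lyve1.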

How the data were processed

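The 8 deposited tables hold TPM per gene, made by the authors with STAR and HOMER on mm10, as named without versions in the submitters' processing notes; how those tools were run is not given in the sources used here. RNA was oligo(dT)-selected and libraries were strand-marked with dUTP, per the labels' protocols. TPM values were steps of whole reads (within 0.1 read for values up to 20 reads), which gave each library's depth. Groups came from the labels. Genes reaching 4 TPM in 2 libraries of a table were tested on log2(TPM + 1) with limma 3.58.1 (trend, R 4.3.3), 1 mean per group and 1 model per table, so all groups of a table share the spread. Genes were called at a p of 0.05 after Benjamini-Hochberg adjustment, with a difference of 2-fold. Fold changes in words are ratios of mean TPM; log2 differences understate changes of low genes. Tables and figures used Python 3.11.15, pandas 2.3.3, numpy 2.4.6 and matplotlib 3.10.9. On simulated libraries for STAB2-low against STAB2-high, 94% of genes changed 3-fold and 100% of those changed 6-fold were recovered, with 16 false calls beside 200 changed genes (10327 genes).

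The members and gene lists were chosen with earlier results of these data known. The text names all members, up to 4 called genes a list with the largest difference (mean over 10 TPM where higher), and the genes most like each member; Cdh5, Igfbp3, Igfbp5, Stab1, Mrc1 and the genes of other lists outside that rule were chosen after their values were seen. There were 25 planned comparisons and 6 added ones, and 1 interaction. Alternatives were a pseudocount of 0.25, no filter, quantile normalization, limma-voom on the recovered reads, a replicate block and leaving out each library. Gata4 is listed under different transcripts in different tables. Counting-based floors cover counting error only.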

Additional observations from a re-analysis of the deposited data

Results flagged for a closer look

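Igfbp7, the insulin-like growth factor-binding protein gene, was also high in a group that entered none of the comparisons: BMDMs with DLL4, TGF-beta and DMHCA for 72 h stood at a mean of 144.9 TPM (143 and 147), against 70.9 and 63.3 TPM in the untreated BMDMs at 72 h. The difference was not tested. It was picked out because it lay in samples outside the comparisons and above the untreated cells by 2-fold. In 9 sets of values from groups of 4 libraries, none had a library that stood apart from the others by Dixon's criterion.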

How the results depend on the processing

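Counts of called members kept to within 1.5 times under another pseudocount, no filter, quantile normalization, limma-voom and the replicate block, apart from these. For RLMs at 168 h against Kupffer cells the count was 1 without the filter (3 in the report). For the antibodies it was 1 with limma-voom and 1 with the replicate block (0 in the report). Both times the member was Flt4 (log2 1.11 and 1.34), which passed the filter only with the antibody-treated libraries, so these counts are descriptions and no test. That block goes by title numbers within each set, which the headers of the antibody libraries do not share. For DLL4 at 72 h it was 1 with a pseudocount of 0.25 and 1 with limma-voom (Kdr; 0 in the report). For DMHCA no count is drawn, since Kdr passed the filter only through the DMHCA libraries. The Igfbp7 call with DMHCA was lost with quantile normalization (log2 -0.89). For TGF-beta on DLL4 at 72 h the count was 2 with a pseudocount of 0.25, quantile normalization or limma-voom (Oit3 added, 1 in the report). The cause was not tested. No member reversed its direction once called. Leaving out 1 library at a time gave counts of 1 to 7 for 24 h, 0 to 5 for 168 h and 5 to 8 for 336 h against Kupffer cells. It gave 0 to 1 for the antibodies and 0 to 1 for the difference between antibodies and LY411575, where the 1 was Flt4 and is again no test. The counts for 12 h, 72 h and TGF-beta on DLL4 also changed in fits that left 1 library in a group. Kdr was not tested without either DMHCA library. Over all genes, STAB2-int against STAB2-high gave 1 call, and 2, 0, 0, 11 and 27 with a pseudocount of 0.25, no filter, quantile normalization, limma-voom and the block. Smad4 TIM4-positive calls went from 96 to 60 and TIM4-negative calls (1.62% of genes) to 83 without the filter, and the latter to 44 without the libraries ending in _716. Antibody calls went from 205 to 367 with limma-voom. TGF-beta calls in Smad4 knockout BMDMs went from 56 to 82 with a pseudocount of 0.25 and 90 with limma-voom. The share of calls that were higher moved from 24.4% to 39.6% for 336 h against Kupffer cells with quantile normalization, from 55.7% to 66.2% for 48 h and from 52.8% to 64.5% for 24 h against monocytes with limma-voom, and from 32.7% to 22.1% for the antibodies with limma-voom. Replicate numbers were shared between groups, but the labels do not say that they mark a shared animal, and with 2 numbers the correlation of same-numbered deviations was 0.057 to 0.137 in the STAB2 fractions and -0.225 to 0.339 in the Nr1h3 table, where the highest was between both knockout-labelled groups (0 members called there with the block too). With the block, 19 of 20 member counts were within 1.5 times, and no paired analysis was possible for the time course and the Smad4 Kupffer table because their groups share fewer than 2 numbers. With 2 libraries in many groups, small differences are not detectable here.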
